A study of Mus musculus with 9 samples.

Results

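The 43 collagen chain genes of the mouse lung were followed here, each gene encoding 1 alpha chain, and were taken as the rows of the deposited gene table (32671 genes) whose symbol is Col, a number, a and a number. Whole lungs of C57BL/6 mice with the genotype label WT were taken at day 21, and their messenger RNA was read in 3 groups of 3 libraries. The LNP group was challenged with bleomycin and then given inhaled lipid nanoparticles labelled mCas9/gSting@DOPS, which carry the nuclease Cas9 and a guide to Sting. The bleomycin group had the challenge alone, bleomycin being a drug that breaks DNA and scars the mouse lung, and the control group had saline. LNP and bleomycin lungs thus share the bleomycin challenge, and a particle without the guide was not analysed here. The series title names macrophages as the cells the particle is aimed at. The labels give no age, and they do not tell whether each library of a group came from its own mouse. The p-values therefore speak to the variation among these libraries, which may be technical.

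Collagens are triple helices of 3 alpha chains, each a long run of repeats that begin with glycine. Fibrillar collagens (types I, II, III, V, XI, XXIV and XXVII) form or join the cross-banded fibrils that give scar tissue its strength. Network collagens form sheets, type IV in basement membranes and types VIII and X in short-chain lattices, and type VI forms beaded filaments. FACIT collagens (types IX, XII, XIV, XVI, XX and XXII here) sit on the surface of fibrils, transmembrane collagens (types XIII, XVII, XXIII and XXV) span the cell membrane, and the multiplexins (types XV and XVIII) lie at basement membranes. In fibrotic lung, fibroblasts and the myofibroblasts derived from them are the main known source of fibrillar collagen. The members fell into 11 fibrillar, 6 basement membrane network, 3 short-chain network, 6 beaded filament, 8 FACIT, 4 transmembrane and 2 multiplexin chains, the anchoring fibril chain Col7a1, and Col28a1 and Col26a1 outside these classes. Of the 43 members, 41 passed the filter on low counts, and Col9a1 and Col9a2 did not, with at most 20 counts in any library. Col19a1 and Col21a1 were not analysed here. The members lie on many chromosomes, and in the deposited coordinates, whose genome build the sources used here do not name, Col1a1 spans bases 94827050 to 94843868 of chromosome 11, Col3a1 bases 45350698 to 45388866 of chromosome 1 and Col7a1 bases 108782654 to 108813943 of chromosome 9, all on the + strand.

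The libraries held 56047830 to 69404903 counts in genes. Markers of lung were present in every library, and the 6 alveolar epithelial markers summed to at least 6733 CPM (counts scaled to a common library size). Libraries of 1 group correlated at r = 0.970 to 0.980 across genes on the log2 CPM scale, except that LNP replicate 3 reached only 0.933 with the other LNP libraries. With the bleomycin libraries it reached 0.943, 0.953 and 0.955. It held 8130 CPM over the 10 skeletal muscle markers and 1868 CPM over 9 squamous epithelium markers. Any other library had at most 52.0 and 40.1 CPM of these. Its alveolar sum was the lowest, at 6733 CPM. That sum was 8598 to 9713 CPM in bleomycin libraries and 18145 and 15193 CPM in LNP replicates 1 and 2. The counts of called chains over all members, and many fold changes, are given with and without LNP replicate 3. The non-overlap counts, the split by sequence match, the class shares, the chain ratios and the transcript shares are given with all libraries only. Beyond this the part of LNP replicate 3 in the collagen values was not tested. Sting1, the gene the guide names, stood at 44.3 to 62.0 CPM in LNP, 40.5 to 53.8 CPM in bleomycin and 18.4 to 23.9 CPM in control libraries. In bulk RNA, fewer cells of a type and less RNA per cell cannot be told apart.

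A sequence feature shared by many members was a match to the seed of the miR-29 microRNAs, small RNAs that bind collagen mRNAs in their 3′ untranslated regions and lower their amount. The 3 mature mouse miR-29 sequences (RefSeq, GRCm38.p6) are printed because they share the seed, bases 2 to 8, in capitals. Below them stand stretches of 30 bases around the 7-base match TGGTGCT (in capitals, on the mRNA strand) for chains the results turn on. They were read from the GENCODE M21 annotation of GRCm38 for the transcript with the most counts of each gene.
mmu-miR-29a-3p: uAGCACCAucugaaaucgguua
mmu-miR-29b-3p: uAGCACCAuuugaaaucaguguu
mmu-miR-29c-3p: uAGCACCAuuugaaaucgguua
Col1a1, match at chr11:94952538-94952544 (+): gtgggaaggaatttcTGGTGCTatagaagc
Col3a1, match at chr1:45348982-45348988 (+): ttcaaaatgtctcaaTGGTGCTataataaa
Col5a3, match at chr9:20770781-20770787 (-): cccacatgggctcctTGGTGCTgaggctct
Col5a3, match at chr9:20770504-20770510 (-): ctccaccaggcctttTGGTGCTattccttt
Col5a3, match at chr9:20770252-20770258 (-): aatcaggatcctacaTGGTGCTgccctgct
Col7a1, match at chr9:108984595-108984601 (+): ctgctgtgctccattTGGTGCTagagttgt
Col7a1, match at chr9:108984827-108984833 (+): gaggctgtgataccaTGGTGCTgatgggag
Col4a1, match at chr8:11199762-11199768 (-): gccaccgtcacaacaTGGTGCTactccccc
Col4a6, match at chrX:141166515-141166521 (-): ctgtttccatccatcTGGTGCTaacattcc
At least 1 match lay in 25 of the 43 collagen transcripts (58.1%), against 2383 of 17523 leading transcripts of all genes (13.6%). All 6 basement membrane chains and 9 of 11 fibrillar chains had one, as did 3 of 8 FACIT, 2 of 6 beaded filament and 1 of 4 transmembrane chains, and 12 members had 2 or more. The collagen untranslated regions were about as long as those of all genes, with medians of 1049 and 968 bases. Among the members, the median was 1315 bases with a match and 882 bases without. A match of 7 bases is a description and not a site, the microRNAs themselves were not measured here, and this motif was chosen with results of these data known.

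Bleomycin lungs held about 3 times the collagen message of control lungs, and the gain was carried by the fibrillar, type IV and type VI chains. Collagen chains took 1.76%, 1.83% and 1.86% of all gene counts in the bleomycin libraries, against 0.547%, 0.593% and 0.534% in the control libraries. Of the 41 members tested, 22 rose and 6 fell in bleomycin against control. Over all 20794 genes tested, 15.2% rose and 18.5% fell. The median log2 fold change was 1.24 over the members and -0.05 over all genes tested. In 27 members every bleomycin library lay above every control library and in 8 every one lay below, where 25.9% and 29.6% of all genes did so. Without LNP replicate 3 in the shared fit, 26 members rose and 6 fell, where 20.5% and 22.1% of all genes did, the additions being Col11a2, Col4a5, Col22a1 and Col23a1. Calls rest on edgeR's quasi-likelihood test at an adjusted p (Benjamini-Hochberg) below 0.05, with ± giving the SE of a log2 fold change and the SD of a level (n = 3 libraries).

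**Figure D1:**
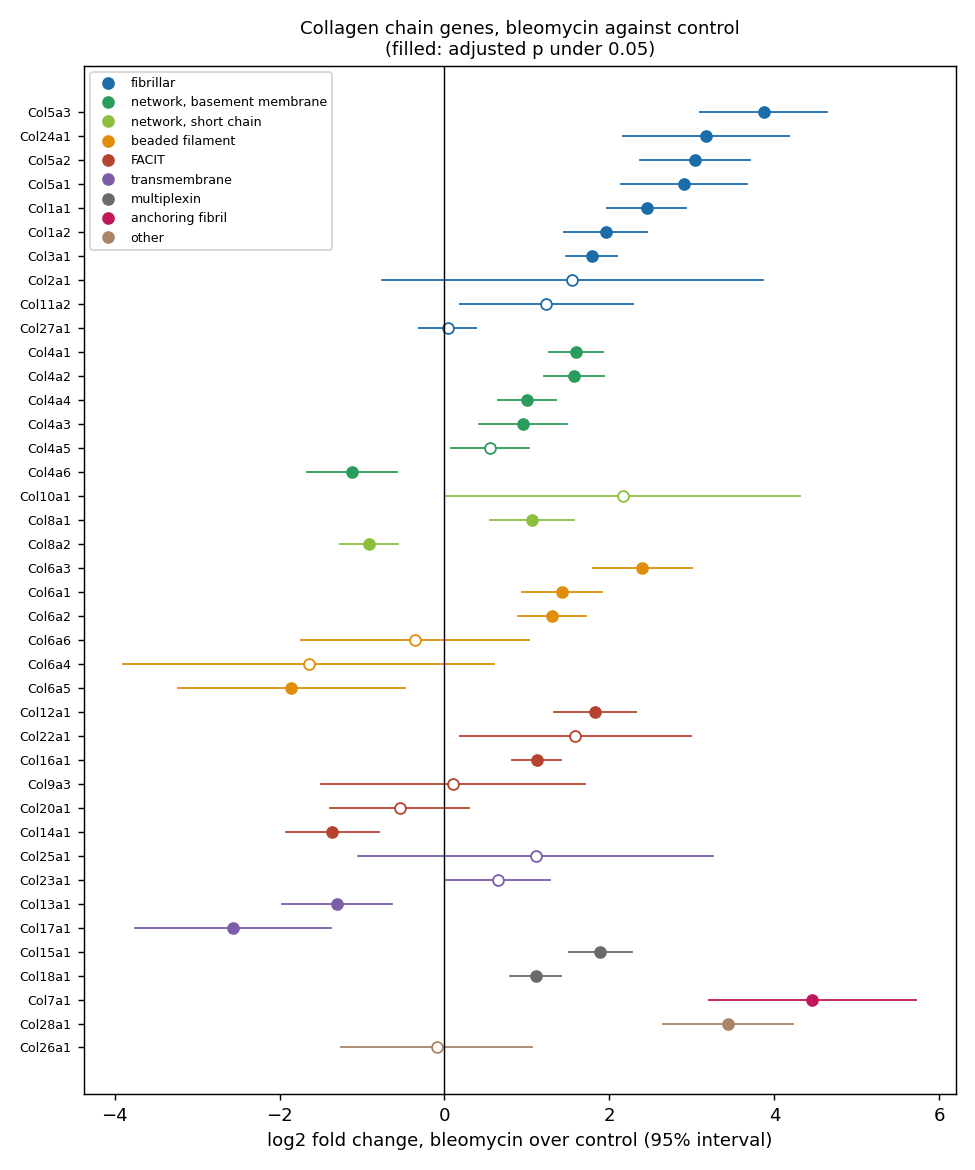
Log2 fold change of bleomycin over control for 40 collagen chain genes, grouped by class, with 95% intervals as lines and filled points where the adjusted p was under 0.05. Fibrillar chains (top) lie at or right of 0 with a median of 2.45, and the transmembrane chains Col13a1 and Col17a1 lie left of 0. Col11a1, with 0 counts in control libraries, is not drawn.

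Of the 11 fibrillar chains 8 rose after bleomycin, and their median log2 fold change was 2.45. In this class 0 fell in edgeR, at an unadjusted p under 0.05 or in DESeq2. Col1a1 and Col1a2 encode the chains of type I collagen, the main collagen of scar. Col1a1 stood at 192, 213 and 315 FPKM in LNP libraries, 332, 378 and 419 FPKM in bleomycin libraries and 63.1, 77.4 and 74.8 FPKM in control libraries. FPKM stands for fragments per kilobase of transcript scaled for depth, and allows levels of different genes to be compared. Every bleomycin library lay above every control library, and the LNP libraries lay between them. Col1a1 was 5.47-fold higher in bleomycin libraries than in control libraries (log2 fold change 2.45 ± 0.21, adjusted p = 1.22e-04). Its partner Col1a2 had a smaller fold change (log2 1.96 ± 0.23, adjusted p = 3.71e-04), at 122 ± 39.1 FPKM in LNP, 162 ± 17.3 FPKM in bleomycin and 43.7 ± 3.93 FPKM in control libraries. Col3a1, the chain of the type III homotrimer found in compliant tissue, was the member with the smallest p. The level of Col3a1 was 157, 177 and 161 FPKM in LNP, 235, 228 and 218 FPKM in bleomycin and 68.4, 72.5 and 66.5 FPKM in control libraries. All 3 groups were separate, and the LNP libraries again lay between the others. Col3a1 was 3.44-fold higher in bleomycin libraries than in control libraries (log2 fold change 1.78 ± 0.14, adjusted p = 8.04e-05).

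The 3 type V chains, which start fibrils and set their width, had larger fold changes than the type I chains. In LNP libraries Col5a3 had 4.98, 6.58 and 12.9 FPKM, in bleomycin libraries 18.1, 19.6 and 17.8 FPKM, and in control libraries 1.34, 1.49 and 1.13 FPKM. LNP replicate 3 lay nearer the bleomycin libraries and LNP replicates 1 and 2 nearer the control libraries. Col5a3 was 14.6-fold higher in bleomycin libraries than in control libraries (log2 fold change 3.87 ± 0.34, adjusted p = 1.28e-04). Col5a2 averaged 33.4 ± 15.7 FPKM in LNP, 63.8 ± 1.55 FPKM in bleomycin and 8.12 ± 0.833 FPKM in control libraries and rose by 3.04 ± 0.30 (adjusted p = 2.01e-04). Col5a1 averaged 37.5 ± 20.4 FPKM in LNP, 72.3 ± 3.12 FPKM in bleomycin and 10.1 ± 1.34 FPKM in control libraries and rose by 2.90 ± 0.34 on the same log2 scale (adjusted p = 4.01e-04). Both had LNP replicate 3 at about 2 times the level of LNP replicates 1 and 2. Col11a1, a type XI chain that nucleates fibrils in cartilage, had no count in the 3 control libraries. It had 86, 49 and 417 counts in LNP libraries and 70, 214 and 230 in bleomycin libraries. With 3 counts over the 3 control libraries taken as the floor, it was at least 191-fold higher in LNP and at least 176-fold higher in bleomycin libraries, bounds that cover counting error only, and LNP replicate 3 held 417 of the 552 LNP counts. Col24a1 rose as well (log2 fold change 3.17 ± 0.45, adjusted p = 9.32e-04) but remained low, at 0.161 ± 0.0403 FPKM in LNP, 0.257 ± 0.00564 FPKM in bleomycin and 0.0284 ± 0.0167 FPKM in control libraries. Col27a1 had a log2 difference of 0.04, with a 95% interval from -0.31 to 0.39, and Col11a2 and Col2a1 did not pass the test.

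**Figure D2:**
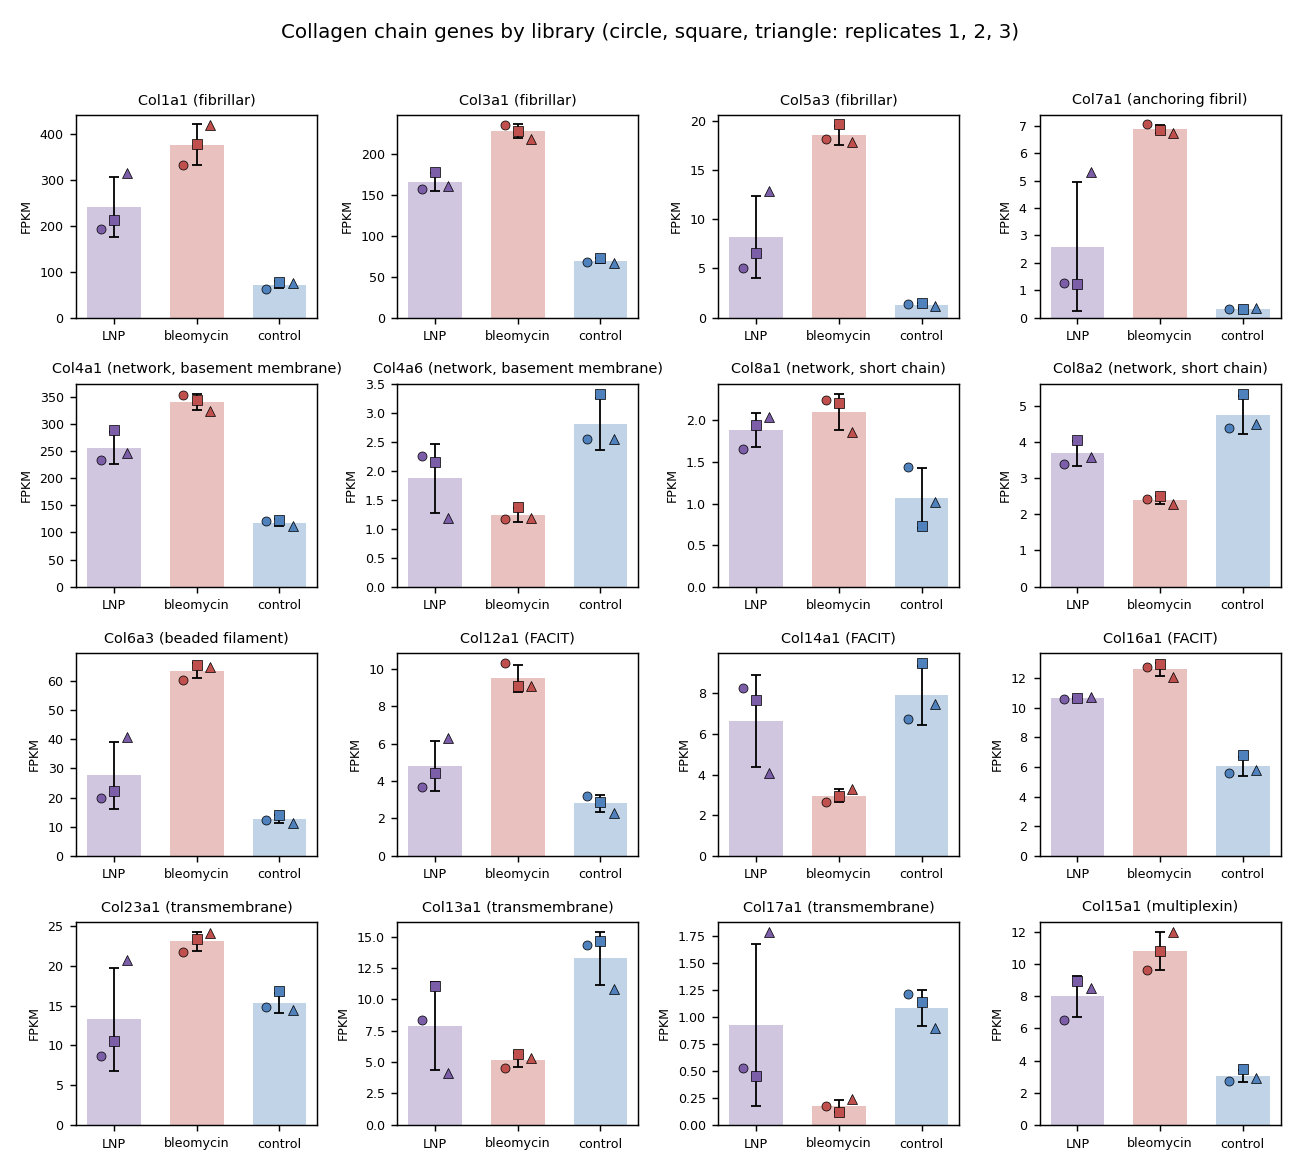
FPKM of 16 collagen chain genes in each library, with bars for the mean of 3 libraries, error bars for the SD and a point for each library. The bleomycin bar is the highest of the 3 for Col1a1, Col3a1, Col5a3, Col7a1, Col4a1 and Col6a3, and the lowest for Col4a6, Col8a2, Col14a1, Col13a1 and Col17a1. LNP replicate 3 (triangle) lies apart from LNP replicates 1 and 2 for Col1a1, Col5a3, Col7a1, Col6a3 and Col17a1.

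Type IV collagen builds the mesh of basement membranes, where alpha1 and alpha2 chains form the common network and alpha3, alpha4 and alpha5 chains the network of the alveolar basement membrane. Of its 6 chains 4 rose, 1 fell and 1 was not called after bleomycin. Col4a2 and Col4a1 were the first and second of all members by mean FPKM over the 9 libraries. For Col4a2, LNP libraries had 226, 266 and 306 FPKM, bleomycin libraries 369.8, 379 and 369 FPKM and control libraries 134, 140.4 and 118 FPKM. Col4a1 stood at 233, 289.8 and 247 FPKM in LNP libraries, 355, 344 and 324 FPKM in bleomycin libraries and 121, 123 and 111 FPKM in control libraries. In each gene the 3 groups were separate. The log2 fold changes of bleomycin over control were 1.57 ± 0.16 for Col4a2 (adjusted p = 2.43e-04) and 1.60 ± 0.15 for Col4a1 (adjusted p = 1.51e-04). Col4a3 and Col4a4 rose by 0.95 ± 0.24 (adjusted p = 0.0136) and 1.01 ± 0.16 (adjusted p = 0.00149). The level of Col4a6 was 2.27, 2.16 and 1.19 FPKM in LNP, 1.16, 1.38 and 1.19 FPKM in bleomycin and 2.55, 3.34 and 2.56 FPKM in control libraries. This X-linked chain of smooth muscle and bronchial basement membranes fell after bleomycin (log2 fold change -1.12 ± 0.25, adjusted p = 0.00747). Its neighbour Col4a5 averaged 13.1 ± 4.07 FPKM in LNP, 13.1 ± 1.69 FPKM in bleomycin and 9.32 ± 0.997 FPKM in control libraries and had a difference of 0.56 ± 0.21 (adjusted p = 0.0687), with a 95% interval from 0.08 to 1.03. The endothelial markers, from cells that lie on type IV collagen, summed to 3282 to 3355 CPM in bleomycin and 4425 to 4887 CPM in control libraries. Of these 7 markers 5 fell and Vwf rose, where 18.5% of all genes fell and 15.2% rose. The part of these markers in the type IV values was not tested.

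The short-chain network chains Col8a1 and Col8a2, which form hexagonal lattices in vessel walls and under endothelia, moved in opposite directions after bleomycin. In LNP libraries Col8a1 had 1.66, 1.95 and 2.05 FPKM, in bleomycin libraries 2.25, 2.21 and 1.86 FPKM, and in control libraries 1.44, 0.732 and 1.02 FPKM. For Col8a2, LNP libraries had 3.39, 4.05 and 3.59 FPKM, bleomycin libraries 2.41, 2.51 and 2.29 FPKM and control libraries 4.38, 5.33 and 4.49 FPKM. For Col8a2 the bleomycin libraries were the lowest and the control libraries the highest, with no overlap. The log2 fold changes of bleomycin over control were 1.06 ± 0.23 for Col8a1 (adjusted p = 0.00689) and -0.91 ± 0.16 for Col8a2 (adjusted p = 0.00229). Col10a1, the chain of hypertrophic cartilage, stayed at or below 0.139 FPKM in every library and lies within Nt5dc1, whose mean count was 877 against 11.9 for Col10a1, so its value is uncertain.

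Of the type VI chains, which assemble into beaded filaments between cells and fibrils, the 3 major ones rose, and of the 3 rarer ones 1 was called lower. Col6a1 stood at 105, 102 and 172 FPKM in LNP libraries, 184, 198 and 199.6 FPKM in bleomycin libraries and 71.2, 84.7 and 70.8 FPKM in control libraries. The level of Col6a3 was 19.8, 22.2 and 40.7 FPKM in LNP, 60.5, 65.5 and 64.9 FPKM in bleomycin and 12.3, 14.2 and 11.3 FPKM in control libraries. All bleomycin libraries lay above all LNP and control libraries in both genes. The log2 fold changes of bleomycin over control were 2.40 ± 0.27 for Col6a3 (adjusted p = 3.38e-04), 1.42 ± 0.22 for Col6a1 (adjusted p = 0.00132) and 1.31 ± 0.18 for Col6a2 (adjusted p = 9.01e-04). Col6a2 averaged 56.5 ± 11.2 FPKM in LNP, 86.4 ± 1.18 FPKM in bleomycin and 36.4 ± 5.11 FPKM in control libraries. Col6a5 was called lower (log2 fold change -1.86 ± 0.62, adjusted p = 0.0423) on 9, 15 and 34 counts in bleomycin against 79, 53 and 82 in control libraries, and this call held in 3 of 9 fits that each left out 1 library. Col6a4 and Col6a6 did not pass the test.

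The FACIT chains divided: Col12a1 and Col16a1 rose, Col14a1 fell, and 3 of the 6 tested were not called. Types XII and XIV both coat type I fibrils. In LNP libraries Col12a1 had 3.68, 4.43 and 6.29 FPKM, in bleomycin libraries 10.3, 9.11 and 9.08 FPKM, and in control libraries 3.21, 2.90 and 2.31 FPKM. For Col14a1, LNP libraries had 8.25, 7.66 and 4.06 FPKM, bleomycin libraries 2.65, 2.94 and 3.29 FPKM and control libraries 6.74, 9.51 and 7.46 FPKM. The bleomycin libraries held the 3 highest values of Col12a1 and the 3 lowest of Col14a1, and LNP replicate 3 lay nearest to them in both. The log2 fold changes of bleomycin over control were 1.83 ± 0.22 for Col12a1 (adjusted p = 4.79e-04) and -1.36 ± 0.25 for Col14a1 (adjusted p = 0.00344). Col16a1 stood at 10.6, 10.7 and 10.7 FPKM in LNP libraries, 12.7, 13.0 and 12.1 FPKM in bleomycin libraries and 5.62, 6.79 and 5.76 FPKM in control libraries. Col16a1, an adaptor between fibrils and cells, rose by 1.12 ± 0.13 on the log2 scale (adjusted p = 4.33e-04), with the 3 groups separate. The type IX chains of cartilage stayed at or below 0.223 FPKM in every library, and Col20a1 and Col9a3 overlap genes of similar or higher count, so their values are uncertain.

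Of the 4 transmembrane chains 0 were called higher and 2 lower after bleomycin, where 15.2% of all genes rose and 18.5% fell. Their median log2 fold change was -0.32, with 2 chains above 0 and 2 below. With 0 called higher in edgeR, 1 lay higher at an unadjusted p under 0.05 (Col23a1) and 0 in DESeq2. The level of Col13a1 was 8.33, 11.1 and 4.13 FPKM in LNP, 4.52, 5.67 and 5.30 FPKM in bleomycin and 14.3, 14.6 and 10.8 FPKM in control libraries. In LNP libraries Col17a1 had 0.530, 0.451 and 1.79 FPKM, in bleomycin libraries 0.171, 0.117 and 0.235 FPKM, and in control libraries 1.22, 1.14 and 0.897 FPKM. Col13a1, a chain of cell adhesions and the neuromuscular junction, was lower in bleomycin libraries, with control replicate 3 just below LNP replicate 2 (log2 fold change of bleomycin over control -1.30 ± 0.30, adjusted p = 0.00923). Col17a1, the hemidesmosome collagen of basal epithelial cells, fell too (-2.57 ± 0.53, adjusted p = 0.00567). For Col23a1, LNP libraries had 8.59, 10.5 and 20.7 FPKM, bleomycin libraries 21.8, 23.4 and 24.1 FPKM and control libraries 14.8, 16.8 and 14.5 FPKM. Col23a1 and Col13a1 together held nearly all of the transmembrane message. The difference of Col23a1 between bleomycin and control was 0.65 ± 0.28 (adjusted p = 0.105). Every bleomycin library of Col23a1 lay above every control library, as in 25.9% of all genes. Col23a1 was called higher when LNP replicate 3 was left out of the fit (0.68, adjusted p = 0.00149), where 20.5% of all genes rose. The 5 basal epithelial markers summed to 2.47 to 9.99 CPM in bleomycin and 5.62 to 9.78 CPM in control libraries and overlapped.

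Outside these classes Col7a1 and Col28a1 rose steeply after bleomycin. Col7a1 stood at 1.24, 1.22 and 5.29 FPKM in LNP libraries, 7.04, 6.85 and 6.73 FPKM in bleomycin libraries and 0.322, 0.315 and 0.335 FPKM in control libraries. Col7a1 forms the fibrils that anchor basement membranes to the tissue beneath. LNP replicate 3 lay near the bleomycin libraries and the other LNP libraries near control. Col7a1 was 22.0-fold higher in bleomycin libraries than in control libraries (log2 fold change 4.46 ± 0.56, adjusted p = 5.50e-04). Col28a1 encodes a chain known from peripheral nerve. The level of Col28a1 was 1.85, 1.37 and 3.35 FPKM in LNP, 3.12, 4.19 and 4.44 FPKM in bleomycin and 0.368, 0.451 and 0.304 FPKM in control libraries. Col28a1 was 10.8-fold higher in bleomycin libraries than in control libraries (log2 fold change 3.43 ± 0.35, adjusted p = 2.36e-04). Both multiplexins rose, Col15a1 by 1.89 ± 0.17 (adjusted p = 1.38e-04) and Col18a1, the precursor of endostatin, by 1.11 ± 0.14 (adjusted p = 5.35e-04). Col15a1 averaged 8.00 ± 1.27 FPKM in LNP, 10.8 ± 1.19 FPKM in bleomycin and 3.04 ± 0.401 FPKM in control libraries, and Col18a1 averaged 15.3 ± 0.777 FPKM in LNP, 21.7 ± 0.886 FPKM in bleomycin and 10.5 ± 1.35 FPKM in control libraries. Col26a1 had a difference of -0.09, with a 95% interval from -1.25 to 1.07.

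Split by the miR-29 seed match printed above, the 24 tested members with a match had a median log2 fold change of 1.58 in bleomycin against control, and 17 of them rose and 1, Col4a6, fell. The 17 without a match had a median of 0.10, with 5 higher and 5 lower. Over all genes tested, the medians were -0.02 for 2216 genes with a match and -0.06 for 13225 without. The match follows the classes, since most fibrillar and all type IV chains have it, and members with a match had longer untranslated regions. The part of class and of length in this split was not tested. In LNP against bleomycin the members with a match had a median of -0.50 and those without 0.24, beside -0.03 and 0.05 over all genes. In LNP against control these medians were 1.21 and 0.49, beside -0.04 and -0.02 over all genes.

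In LNP lungs the collagen message was intermediate, and few single chains were called different from bleomycin lungs when all 9 libraries were used. Collagen chains took 1.06%, 1.21% and 1.47% of all counts in the LNP libraries, against 1.76%, 1.83% and 1.86% in the bleomycin libraries. Of 41 members tested, 6 fell and 2 rose in LNP against bleomycin, where 1.87% of all genes fell and 4.28% rose. The members that fell were Col12a1, Col6a3, Col18a1, Col3a1, Col5a3 and Col6a2, and those that rose were Col14a1 and Col17a1. The median log2 fold change was -0.30 over the members and 0.04 over all genes tested. In 20 members every LNP library lay below every bleomycin library and in 6 above, where 14.5% and 15.4% of all genes did so.

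These counts turned on single libraries. Without LNP replicate 3, 17 members fell and 4 rose, where 10.7% and 14.0% of all genes did, and the median log2 fold change was -0.54 over the members and 0.01 over all genes. Without LNP replicate 1 or LNP replicate 2, 0 fell in edgeR, with 15 and 18 lower at an unadjusted p under 0.05. In those fits 41 of 21503 and 53 of 21536 genes fell in all. Likewise 0 fell without bleomycin replicate 1 or bleomycin replicate 2, with 16 and 16 lower at an unadjusted p under 0.05, in fits where 43 of 21502 and 18 of 21495 genes fell. DESeq2 on all libraries called 16 members lower, and 1158 of 20794 genes. Leaving out bleomycin replicate 3, control replicate 1 or control replicate 3 left 2, 3 and 2 lower, while leaving out control replicate 2 gave 7, where 533 of 21510 genes fell. The 2 rises went to 0 or 1 without any 1 library other than LNP replicate 3, which gave 4.

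Col12a1 and Col6a3 had the smallest p in this comparison. Their values stand with the FACIT and type VI chains above, and in each the LNP and bleomycin libraries did not overlap. The log2 fold changes of LNP over bleomycin were -1.11 ± 0.22 for Col12a1 (adjusted p = 0.0217) and -1.32 ± 0.26 for Col6a3 (adjusted p = 0.022). Col18a1 had -0.62 ± 0.14 (adjusted p = 0.0308) and Col3a1 -0.58 ± 0.13 (adjusted p = 0.035). Col5a3 had -1.30 ± 0.31 (adjusted p = 0.0408) and Col6a2 -0.73 ± 0.18 (adjusted p = 0.0472). Without LNP replicate 3 these 6 remained lower, and Col6a3 and Col5a3 stood at -1.72 ± 0.15 and -1.80 ± 0.18. Col3a1 and Col18a1 barely moved, at -0.57 and -0.63.

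**Figure D3:**
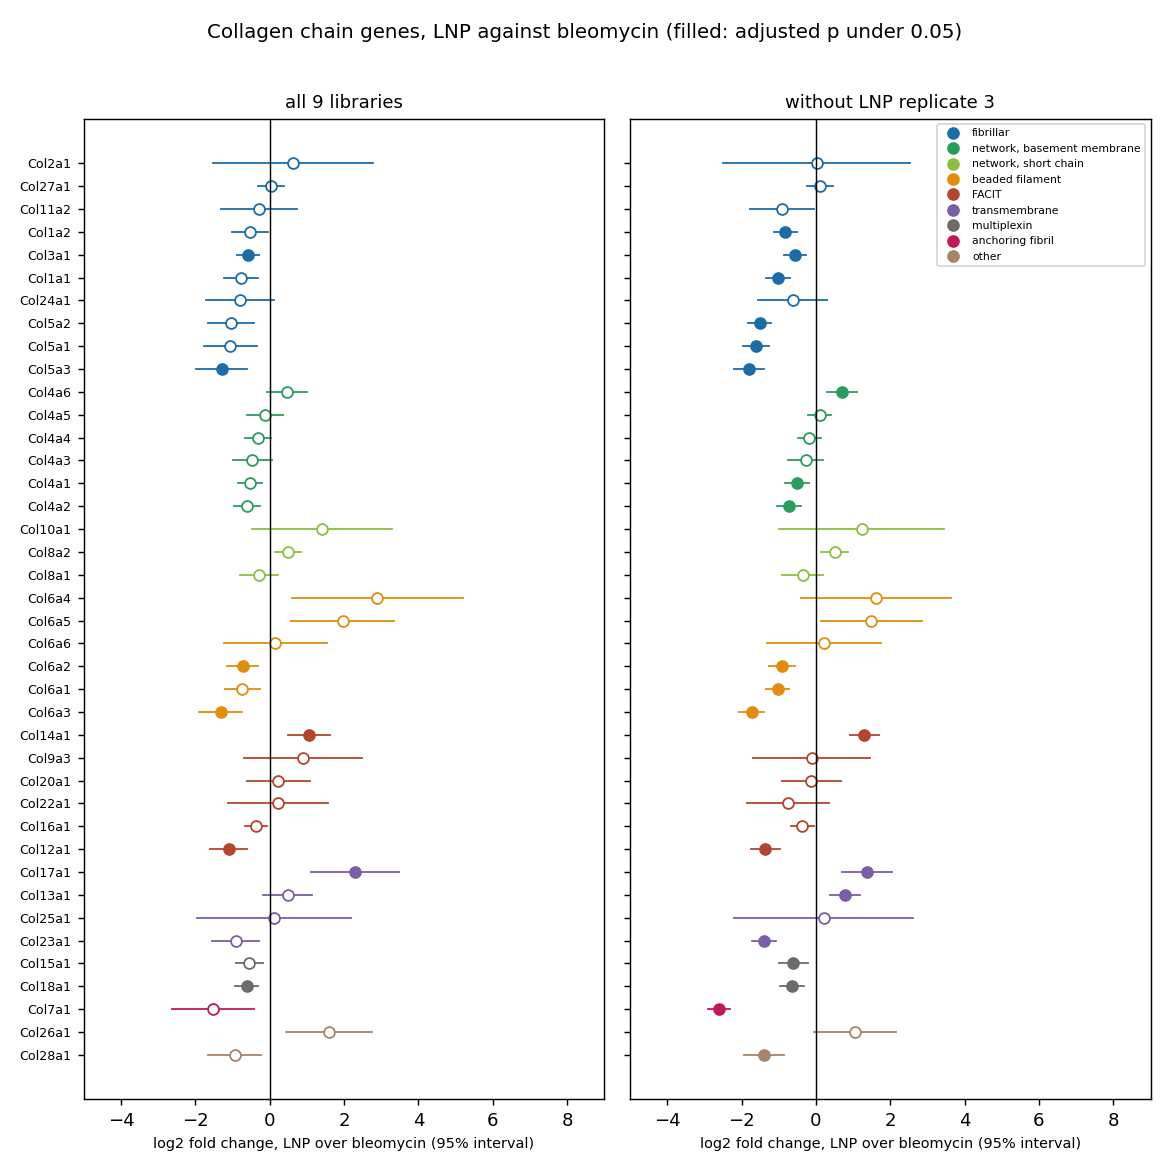
Log2 fold change of LNP over bleomycin for 40 collagen chain genes, grouped by class, with 95% intervals, from the fit of all 9 libraries (left) and without LNP replicate 3 (right). Filled points have an adjusted p under 0.05: 8 members on the left and 21 on the right, where the fibrillar, type VI and type VII intervals are narrower. Col11a1 is not drawn.

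Among fibrillar chains, Col1a1 showed a log2 difference of -0.76 ± 0.20 between LNP and bleomycin (adjusted p = 0.0578), and -1.02 ± 0.15 without LNP replicate 3 (adjusted p = 0.0011). Col1a2, Col5a1 and Col5a2 likewise passed in edgeR without that library, at -0.83, -1.62 and -1.51, and not with all libraries. DESeq2 called Col1a1, Col5a1 and Col5a2 lower with all libraries (adjusted p = 0.00537, 0.0113 and 0.00396) and did not call Col1a2 (adjusted p = 0.102). The type IV chains Col4a1 and Col4a2 had -0.53 ± 0.14 (adjusted p = 0.0581) and -0.61 ± 0.16 (adjusted p = 0.054) with all libraries, and both were called lower without LNP replicate 3, without control replicate 2 and in DESeq2. Col7a1 had -1.52 ± 0.49 (adjusted p = 0.0959) with all libraries and -2.61 ± 0.13 (adjusted p = 5.25e-06) without LNP replicate 3, and DESeq2 called it lower with all libraries (adjusted p = 0.0126). Its 1.24 and 1.22 FPKM in LNP replicates 1 and 2 were far below the 6.73 to 7.04 FPKM of bleomycin libraries, while LNP replicate 3 had 5.29 FPKM.

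The 2 rises, of 41 members tested where 4.28% of all genes rose, belonged to chains that had fallen after bleomycin. Each was called in 2 of 9 fits that left out 1 library. Col14a1 was higher in LNP than in bleomycin libraries by 1.05 ± 0.25 (adjusted p = 0.0416), and by 1.30 ± 0.17 without LNP replicate 3 (adjusted p = 6.95e-04). Col17a1 was higher by 2.30 ± 0.53 (adjusted p = 0.0355), and by 1.37 ± 0.30 without LNP replicate 3 (adjusted p = 0.00857). LNP replicate 3 held 1.79 FPKM of Col17a1 against 0.53 and 0.451 FPKM in the other LNP libraries. The basal epithelial markers were also highest in LNP replicate 3, at 106 CPM. They had 25.6 and 8.46 CPM in LNP replicates 1 and 2, and at most 9.99 CPM elsewhere. Control libraries had 5.62 to 9.78 CPM of these markers, with Col17a1 at 0.897 to 1.22 FPKM. The part of these markers in the Col17a1 value was not tested. Without LNP replicate 3, Col13a1 (0.78 ± 0.18, adjusted p = 0.0118) and Col4a6 (0.71 ± 0.18, adjusted p = 0.0175) were also called higher, where 14.0% of all genes rose. Col8a2 had 0.49 ± 0.16 (adjusted p = 0.0901) with all libraries. These chains share the bleomycin libraries between both comparisons, so their 2 fold changes are not independent.

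The transmembrane chain Col23a1 differed in direction from Col13a1 and Col17a1. It had 8.59 and 10.5 FPKM in LNP replicates 1 and 2, below the 14.5 to 16.8 FPKM of control libraries, and 20.7 FPKM in LNP replicate 3. Against bleomycin the log2 difference was -0.91 ± 0.29 (adjusted p = 0.0877) and -1.40 ± 0.14 without LNP replicate 3 (adjusted p = 1.72e-04). Over the members, LNP replicate 3 was the highest LNP library in 27 of 43 chains. It was the highest in 8 of 11 fibrillar, 5 of 6 beaded filament and 6 of 8 FACIT chains, but the lowest in 4 of 6 type IV chains. Among those FACIT chains Col16a1 was nearly equal in the 3 LNP libraries. Col20a1, Col22a1, Col9a3 and Col9a2 stayed at or below 0.494 FPKM in them. The share of all genes with LNP replicate 3 highest was not worked out.

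LNP lungs still held more collagen message than control lungs. Of 41 members tested, 16 rose in LNP against control, where 4.95% of all genes rose, and 8 of the 16 were fibrillar. In edgeR 0 members fell, where 3.08% of all genes fell, with 3 lower at an unadjusted p under 0.05 and 0 in DESeq2. The median log2 fold change was 0.97 over the members and -0.003 over all genes tested. In 25 members every LNP library lay above every control library and in 2 below, where 13.7% and 15.2% of all genes did so. Col5a3 was 5.96-fold higher in LNP libraries than in control libraries (log2 fold change 2.57 ± 0.33, adjusted p = 0.00233). Col1a1 was 3.23-fold higher in LNP libraries than in control libraries (log2 fold change 1.69 ± 0.21, adjusted p = 0.00213). Col3a1 was 2.30-fold higher in LNP libraries than in control libraries (log2 fold change 1.20 ± 0.13, adjusted p = 0.00145). Col7a1 rose by 2.94 ± 0.53 (adjusted p = 0.00922), by 1.89 without LNP replicate 3 (adjusted p = 3.61e-05), and was not called without control replicate 1. The other calls included Col28a1 (2.49 ± 0.34, adjusted p = 0.00311), Col5a2 (1.99 ± 0.29, adjusted p = 0.0038), Col1a2 (1.43 ± 0.22, adjusted p = 0.00515), Col15a1 (1.34 ± 0.17, adjusted p = 0.00233) and Col4a1 (1.06 ± 0.15, adjusted p = 0.00311). Without LNP replicate 3, 18 members rose and 2 fell, where 6.41% and 4.51% of all genes did. The 2 that fell were transmembrane chains, Col17a1 (-1.16 ± 0.30, adjusted p = 0.0361) and Col23a1 (-0.71 ± 0.14, adjusted p = 0.00946). With all libraries Col17a1 had -0.27 ± 0.50 (adjusted p = 0.791).

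The make-up of the collagen message also differed between groups. Summed over the members, FPKM reached 1465 ± 241 in LNP, 2132 ± 60.1 in bleomycin and 677 ± 43.4 in control libraries. The fibrillar chains summed to 608 ± 143 FPKM in LNP, 922 ± 54.0 FPKM in bleomycin and 205 ± 13.5 FPKM in control libraries. Fibrillar chains made up 41.2 ± 2.99% of this sum in LNP, 43.2 ± 1.38% in bleomycin and 30.3 ± 1.40% in control libraries, and every LNP and bleomycin library lay above every control library. The 3 LNP libraries had 39.8%, 39.1% and 44.6%. Basement membrane chains made up 39.1 ± 4.72%, 35.9 ± 1.49% and 41.4 ± 1.93% in LNP, bleomycin and control libraries. The 3 LNP libraries had 40.5%, 43.1% and 33.9%. LNP replicates 1 and 2 lay within the control range and above every bleomycin library, and LNP replicate 3 was the lowest of the 9 libraries. Beaded filament chains made up 14.2 ± 2.08%, 16.1 ± 0.114% and 18.4 ± 0.971% in the same order of groups. Transmembrane chains made up 1.498 ± 0.0872% in LNP, 1.33 ± 0.0430% in bleomycin and 4.38 ± 0.260% in control libraries. Their summed FPKM was 22.0 ± 4.56 in LNP, 28.4 ± 1.70 in bleomycin and 29.7 ± 3.25 in control libraries, with bleomycin and control overlapping. FACIT chains made up 1.58 ± 0.282% in LNP, 1.20 ± 0.0637% in bleomycin and 2.55 ± 0.153% in control libraries. These shares are given as a description with no test.

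**Figure D4:**
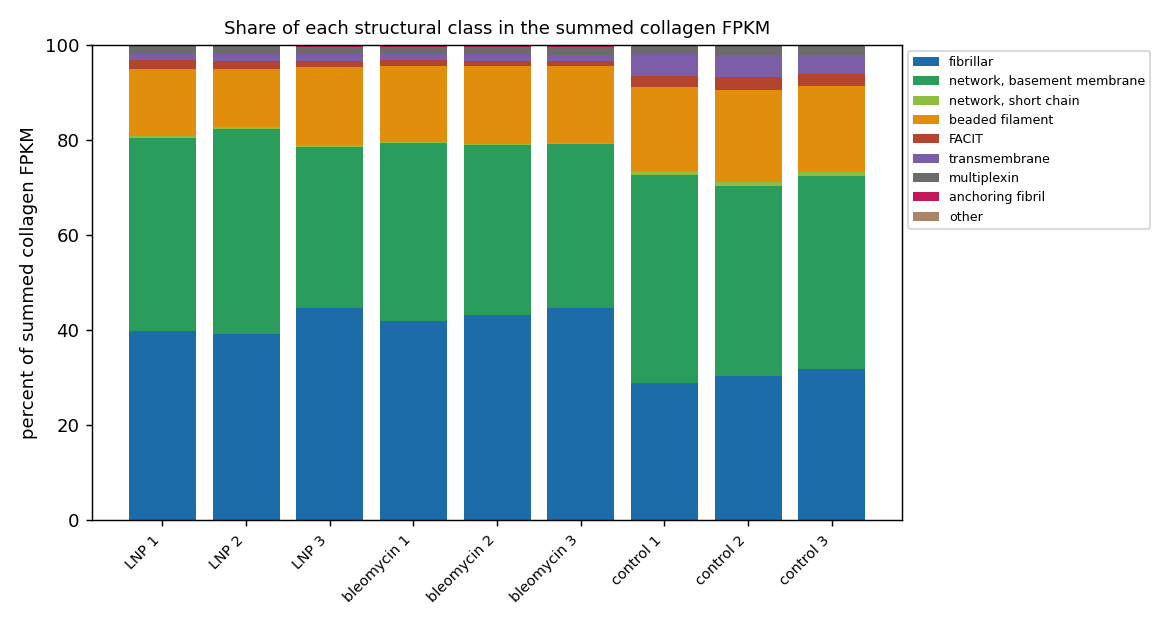
Share of each structural class in the summed FPKM of all collagen chain genes, in percent, as a stacked bar for each library. The fibrillar share (lowest block) lies at 39.1% to 44.7% in LNP and bleomycin libraries and at 28.9% to 31.7% in control libraries, and the transmembrane share is narrower in LNP and bleomycin than in control libraries.

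Chains that assemble together did not always keep their proportion. The FPKM ratio of Col1a1 to Col1a2, whose products join 2 to 1 in type I collagen, was 1.98 ± 0.0885 in LNP, 2.32 ± 0.0284 in bleomycin and 1.64 ± 0.0577 in control libraries, and the 3 groups did not overlap. Col6a3 to Col6a1 was 0.214 ± 0.0245 in LNP, 0.328 ± 0.00249 in bleomycin and 0.166 ± 0.00652 in control libraries, again with no overlap. Col8a1 to Col8a2 was 0.513 ± 0.0491, 0.876 ± 0.0610 and 0.232 ± 0.0962 in LNP, bleomycin and control libraries, and these groups were also separate. The ratio of Col5a1 to Col5a2 was 1.10 ± 0.0774 in LNP, 1.14 ± 0.0749 in bleomycin and 1.25 ± 0.186 in control libraries, and all 3 groups overlapped. Col6a1 to Col6a2 was 2.20 ± 0.236 in LNP, 2.25 ± 0.0775 in bleomycin and 2.08 ± 0.0698 in control libraries. Here the bleomycin libraries (2.16 to 2.30) lay above the control libraries (2.00 to 2.13), and the LNP libraries (2.06 to 2.48) overlapped both. The ratio of Col3a1 to Col1a1 was 0.720 ± 0.183 in LNP, 0.611 ± 0.0944 in bleomycin and 0.970 ± 0.101 in control libraries, and LNP replicate 3 had 0.510.

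The type IV genes lie in head-to-head pairs, and the ratio of 2 of the 3 pairs overlapped between all groups. In the deposited coordinates Col4a1 and Col4a2 on chromosome 8 share 22 bases at their starts, and reads of such overlapping genes may be split. The ratio of Col4a1 to Col4a2 was 0.976 ± 0.150 in LNP, 0.915 ± 0.0405 in bleomycin and 0.906 ± 0.0354 in control libraries. LNP replicates 1 and 2, at 1.03 and 1.09, lay above every bleomycin and control library (at most 0.959). LNP replicate 3, at 0.807, lay below them all, so the overlap of LNP with the other groups came from that library. Col4a3 and Col4a4 on chromosome 1 start 71 bases apart, with ratios of 0.874 ± 0.104, 0.991 ± 0.0579 and 1.01 ± 0.181 in LNP, bleomycin and control libraries. Col4a5 and Col4a6 on chromosome X start 1308 bases apart. Their ratio was 7.01 ± 0.713 in LNP, 10.6 ± 1.46 in bleomycin and 3.36 ± 0.610 in control libraries, and the 3 groups did not overlap.

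**Figure D5:**
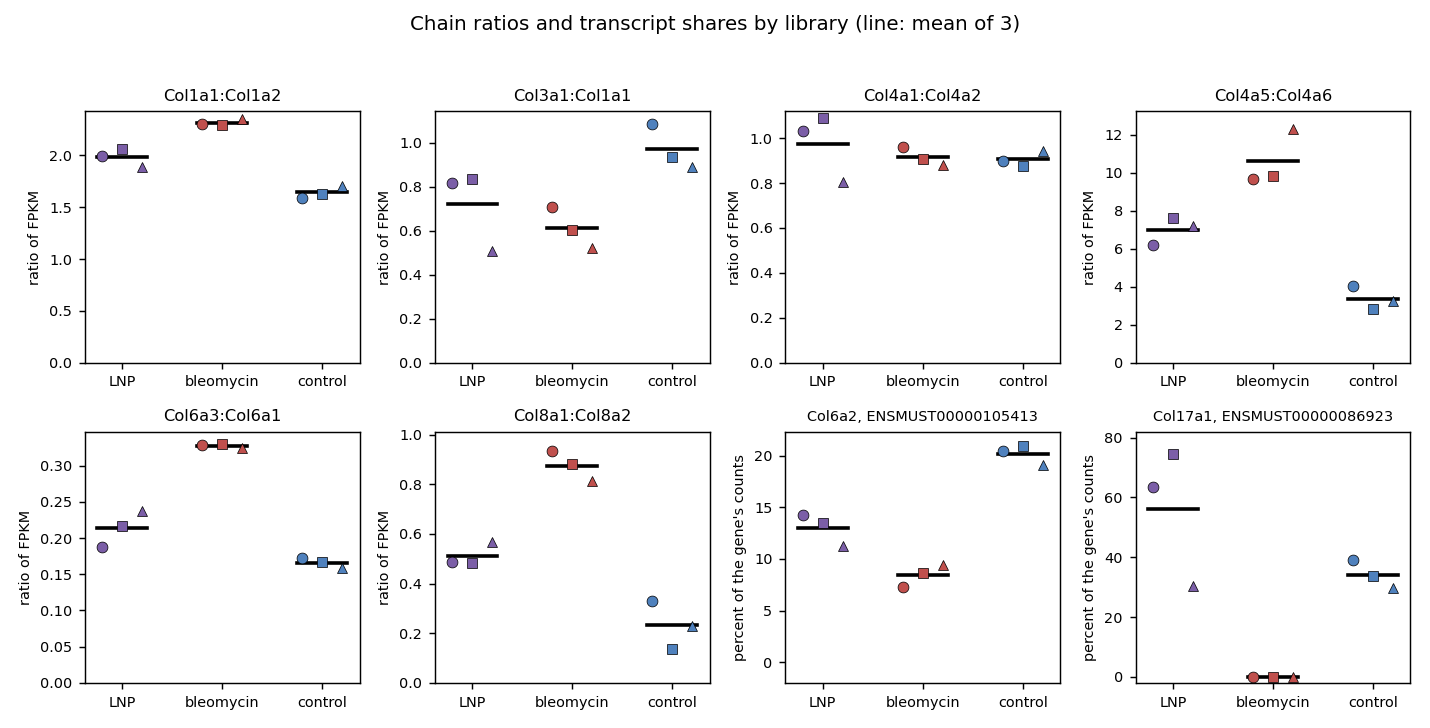
FPKM ratio of 6 chain pairs, and the percent of Col6a2 and Col17a1 counts given to 1 transcript, in each library, with a line for the mean of 3. Col1a1:Col1a2, Col6a3:Col6a1, Col8a1:Col8a2 and Col4a5:Col4a6 separate the 3 groups with bleomycin highest, while Col4a1:Col4a2 overlaps between them.

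Transcripts were also shared out differently for a pair of chains. Of the 43 members, 20 had counts in every library and 1 transcript that took at least 90% of them in each. For Col6a2, ENSMUST00000105413 took 14.2%, 13.4% and 11.3% of counts in LNP, 7.26%, 8.60% and 9.38% in bleomycin and 20.4%, 20.9% and 19.1% in control libraries, with no overlap between groups. For Col17a1, ENSMUST00000086923 took 63.6%, 74.6% and 30.3% of counts in LNP and 39.0%, 33.8% and 29.8% in control libraries, and was listed at 0 in all 3 bleomycin libraries, where the gene had 76, 51 and 103 counts. These shares rest on the authors' assignment of reads to transcripts and were not tested. That assignment also differed between libraries of 1 group. For Col13a1, ENSMUST00000105453 took 0%, 1.97% and 84.5% of counts in control replicates 1, 2 and 3.

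Promoter windows of 250 bases before the RefSeq start (GRCm38.p6) are printed for 2 fibrillar chains that rose in bleomycin against control, Col3a1 and Col5a3, and for the transmembrane chain Col13a1, which fell. Capitals mark matches on either strand to the CCAAT box, the GC box (GGGCGG), the TATA box (TATAAA), the SMAD-binding motif (CAGAC) and the AP-1 motif (TGANTCA).
Col3a1, chr1:45311288-45311537 (+): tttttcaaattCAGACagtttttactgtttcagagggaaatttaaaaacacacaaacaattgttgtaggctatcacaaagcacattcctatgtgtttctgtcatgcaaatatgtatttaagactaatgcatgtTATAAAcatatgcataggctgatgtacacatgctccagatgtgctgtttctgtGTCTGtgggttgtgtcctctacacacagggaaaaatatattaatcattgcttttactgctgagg
Col5a3, chr9:20815068-20815317 (-): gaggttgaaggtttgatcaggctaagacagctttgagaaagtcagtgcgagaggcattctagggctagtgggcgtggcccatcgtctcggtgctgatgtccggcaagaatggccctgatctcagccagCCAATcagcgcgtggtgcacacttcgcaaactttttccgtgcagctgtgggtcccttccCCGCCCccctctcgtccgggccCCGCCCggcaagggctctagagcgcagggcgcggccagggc
Col13a1, chr10:61979109-61979358 (-): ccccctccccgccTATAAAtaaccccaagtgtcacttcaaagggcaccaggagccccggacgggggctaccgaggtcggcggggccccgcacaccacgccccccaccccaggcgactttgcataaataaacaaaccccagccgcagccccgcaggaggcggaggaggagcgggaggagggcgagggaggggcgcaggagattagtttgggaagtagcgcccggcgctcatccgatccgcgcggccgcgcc
The Col3a1 window held 2 SMAD-binding motifs and a TATA box match that begins 117 bases before the start. The Col5a3 window held a CCAAT box and 2 GC boxes. In the Col13a1 window a TATA box match begins 237 bases before the start. Among 34 collagen windows the GC box lay in 61.8%, against 32.7% of 32851 windows of all genes. The CCAAT box lay in 35.3% against 33.8%, the TATA box in 14.7% against 12.4%, the SMAD-binding motif in 38.2% against 42.2% and the AP-1 motif in 2.94% against 6.75%. A match describes letters and not a bound site.

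The genes that fold, process, bind or break down collagen were counted beside the shares of all genes. Of 20 folding and modification genes, 10 rose and 2 fell in bleomycin against control, where 15.2% of all genes rose and 18.5% fell. P4ha3, a prolyl 4-hydroxylase subunit, averaged 35.2 ± 1.40 CPM in bleomycin and 1.497 ± 0.269 CPM in control libraries (log2 fold change 4.56 ± 0.50, adjusted p = 3.16e-04). P3h1 and the chaperone Fkbp10 rose by 1.22 and 1.97 on the log2 scale, while Colgalt2, a collagen galactosyltransferase, and P4ha1 fell by 2.51 and 0.84. In LNP against bleomycin, 2 of these 20 fell, Fkbp14 (-1.17 ± 0.18, adjusted p = 0.0106) and P4ha2 (-0.54 ± 0.13, adjusted p = 0.0429), where 1.87% of all genes fell and 4.28% rose. In edgeR 0 of the 20 rose, with 1 higher at an unadjusted p under 0.05 and 1 in DESeq2. When LNP replicate 3 was left out, 7 fell and 2 rose, where 10.7% of all genes fell and 14.0% rose. In LNP against control, where 4.95% of all genes rose and 3.08% fell, 4 of the 20 rose and 0 fell in edgeR, with 2 lower at an unadjusted p under 0.05 and 1 in DESeq2.

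Of 12 processing and cross-linking genes, 8 rose and 1 fell in bleomycin against control, where 15.2% of all genes rose and 18.5% fell. Adamts2, which removes the amino-terminal propeptide, averaged 258 ± 15.8 CPM in bleomycin and 90.9 ± 11.5 CPM in control libraries (log2 fold change 1.504 ± 0.153, adjusted p = 2.31e-04). Bmp1, which removes the carboxy-terminal propeptide, rose by 1.80 ± 0.26 (adjusted p = 0.00101), and the lysyl oxidase Loxl2 by 1.85 ± 0.29 (adjusted p = 0.00148). Pcolce2, an enhancer of propeptide removal, fell to 49.2 ± 3.54 CPM in bleomycin, against 335 ± 55.8 CPM in control libraries. In LNP against bleomycin Adamts2 fell (-0.59 ± 0.15, adjusted p = 0.0488), where 1.87% of all genes fell and 4.28% rose. In edgeR 0 of the 12 rose, with 1 higher at an unadjusted p under 0.05 and 1 in DESeq2. Leaving out LNP replicate 3 gave 8 falls and a rise of Pcolce2, where 10.7% of all genes fell and 14.0% rose. In LNP against control 3 rose and 1 fell, where 4.95% of all genes rose and 3.08% fell.

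Of 8 collagen-degrading enzymes tested, 5 rose in bleomycin against control, among them the cathepsin Ctsk (153.7 ± 36.2 CPM in bleomycin and 22.9 ± 4.31 CPM in control libraries, adjusted p = 8.04e-05). In edgeR 0 fell, as in DESeq2 and at an unadjusted p under 0.05. Over all genes tested, 15.2% rose and 18.5% fell. The collagenases and gelatinases Mmp14, Mmp2, Mmp8 and Mmp13 rose too, the first pair by 2.27 and 1.71 on the log2 scale. Mmp8 (-2.18 ± 0.38, adjusted p = 0.0153) and Ctsk (-0.79 ± 0.20, adjusted p = 0.0472) fell in LNP against bleomycin, where 1.87% of all genes fell. Without LNP replicate 3, Mmp14 and Fap fell too, where 10.7% of all genes did. In LNP against control 4 of the 8 rose, where 4.95% of all genes did. Of 11 collagen receptors, 3 rose and 2 fell in bleomycin against control, counts near the shares of all genes (15.2% and 18.5%). The mannose receptor Mrc1 fell in LNP against bleomycin (-1.19 ± 0.21, adjusted p = 0.0165). Of 12 fibril-binding and matricellular genes, 6 rose and 3 fell in bleomycin against control, beside the same shares of all genes. Fn1 averaged 2207 ± 853 CPM in LNP, 4613 ± 135 CPM in bleomycin and 439 ± 74.1 CPM in control libraries. Tnxb went the other way, at 71.2 ± 10.3, 38.5 ± 1.499 and 169 ± 34.9 CPM in LNP, bleomycin and control libraries.

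Markers of the cells that make collagen did not all follow it. The 8 general fibroblast markers summed to 1299 to 1582 CPM in LNP, 1136 to 1383 CPM in bleomycin and 3161 to 4202 CPM in control libraries, and 5 of the 8 fell and Mfap5 rose in bleomycin against control. The 8 activated fibroblast markers summed to 669 to 1110 CPM in LNP, 1435 to 1505 CPM in bleomycin and 963 to 1188 CPM in control libraries. Of these 8, Grem1, Adam12, Lrrc15 and Cthrc1 rose in bleomycin against control, where 15.2% of all genes rose and 18.5% fell. In LNP against bleomycin 0 of the 8 rose or fell in edgeR with all libraries. At an unadjusted p under 0.05, 6 were lower, and DESeq2 called 5 lower. Without LNP replicate 3, 6 fell, where 10.7% of all genes did. The LNP sums were 750.4 and 669 CPM in LNP replicates 1 and 2 and 1110 CPM in LNP replicate 3. Acta2, Tagln and Postn made up most of each sum. In LNP against control Grem1, Cthrc1, Lrrc15 and Adam12 rose, where 4.95% of all genes rose. In edgeR 0 of the 8 fell, where 3.08% of all genes fell, with 1 lower at an unadjusted p under 0.05 and 0 in DESeq2. Without LNP replicate 3 the same 4 rose and Acta2 fell, where 6.41% and 4.51% of all genes did. Mesothelial markers, from the lining of the lung surface, summed to 700.3 to 1027 CPM in LNP, 1385 to 1448 CPM in bleomycin and 532 to 807 CPM in control libraries. The members of this list went both ways, since Krt19, Msln and Upk1b rose and Upk3b and Lrrn4 fell in bleomycin against control. Adipocyte and heart muscle markers, the second also found in the sleeves of pulmonary veins, were highest in control lungs, where Col4a6, Col8a2, Col14a1, Col13a1 and Col17a1 also averaged highest. The 6 adipocyte markers summed to 26.4 to 35.3 CPM in LNP, 2.00 to 6.06 CPM in bleomycin and 115.6 to 131.9 CPM in control libraries, and all 6 fell in bleomycin against control. The 7 heart muscle markers summed to 211 to 358 CPM in LNP, 110.8 to 388 CPM in bleomycin and 861 to 1243 CPM in control libraries. The 6 smooth muscle markers summed to 484, 461 and 1586 CPM in LNP, 597 to 852 CPM in bleomycin and 769 to 999.6 CPM in control libraries. Des, the desmin gene that skeletal muscle also expresses, made up 1292 of the 1586 CPM in LNP replicate 3, and 4 of the 6 markers fell in bleomycin against control. The 10 cartilage markers summed to 15.2 to 26.5 CPM in LNP, 7.96 to 8.47 CPM in bleomycin and 61.5 to 95.8 CPM in control libraries. Most of the control sum was Chad, a cartilage matrix protein gene, at 9.30 to 23.1 CPM in LNP, 0.917 to 3.78 CPM in bleomycin and 59.2 to 93.9 CPM in control libraries. Chad fell in bleomycin against control while Sox9 and Hapln1 rose, and the defining genes Acan and Matn1 stayed at or below 1.69 and 0.18 CPM in every library. The part of these cell types in the collagen values was not tested.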

How the data were processed

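Whole-lung messenger RNA was measured in 9 libraries, whose groups and replicate numbers (3 LNP, 3 bleomycin and 3 control) come from the labels. The libraries were poly(A)-selected, paired-end and kept strand, per the labels' protocols. fastp, StringTie and edgeR are named without versions in the submitters' processing notes, and for the aligner and genome build nothing is stated in the sources used here. The authors deposited raw gene and transcript counts, all of them whole numbers, together with gene FPKM, their own scaling of expression for length and depth, per the file headers. Whether counting used strand is unknown. With 56047830 to 69404903 counts per library, counting error is small beside the spread between libraries for all but the rarest chains.

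Comparisons used edgeR 4.0.16 in R 4.3.3: the quasi-likelihood F test on gene counts, 1 model over the 9 libraries, TMM library scaling, and filterByExpr, which retained 20794 of 32671 genes. P-values were adjusted by Benjamini-Hochberg over the retained genes, with calls under 0.05. Genes were compared with each other in FPKM, and groups counted as not overlapping where every library of one exceeded every library of the other in scaled CPM. Chains described in full were up to 8 called chains of smallest p per comparison, the 2 most abundant of each class, and their chain partners, and each pathway list has up to 3 called examples of smallest p. Col4a3, Col4a4, Col4a5, Col4a6, Col6a5, Col11a1 and Col24a1, other pathway genes, and marker genes named singly were chosen after their values were seen. The members, classes, gene lists and motifs were chosen with earlier results of these data known.

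As alternatives, DESeq2 1.42.0, RLE scaling, an unfiltered table, separate fits per pair of groups, a block for replicate number, a 1.5-fold minimum effect, and limma 3.58.1 on FPKM (log2 with a pseudocount of 1 or 0.1, mean FPKM at least 0.5, or no filter) were run, and each library was left out once. In counts simulated for 20794 genes, edgeR found 85%, 86% and 76% of 4-fold changes for bleomycin against control, LNP against bleomycin and LNP against control, and 24%, 43% and 21% of 2-fold changes. Only a small part of the genes was changed in the simulation, and none of the rarest. These rates may therefore differ from those of the real comparisons, where many more genes were called, and do not cover the rarest chains. Sequences and plots were handled in Python 3.11.15 (pandas 2.3.3, matplotlib 3.10.9).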

Additional observations from a re-analysis of the deposited data

How the results depend on the processing

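In bleomycin against control, 20 of the 24 chains described in full kept direction and call under every alternative, and the 22 rises and 6 falls ran from 20 to 26 and from 3 to 6, with 3 falls under a minimum of 1.5-fold, where 1704 of 20794 genes fell. Col26a1, not called, changed sign without control replicate 2 (0.31) and without bleomycin replicate 1 (0.12). Its values with 1 library left out ran from -0.41 to 0.31. Only 2 of the 24 chains kept direction and call under every alternative in LNP against bleomycin, and 12 in LNP against control. Of the 16 rises in LNP against control, Col6a3 was called in 4 of 9 fits that each left out 1 library, and Col4a4 in 3. In LNP against bleomycin, the 6 falls became 16 with DESeq2, 3 without a filter, 1 in a fit of only those groups, 1 with the replicate block, 0 at a minimum of 1.5-fold and 1 with limma without a filter, and ran from 0 to 17 when 1 library was left out. Over all genes, 389 of 20794 fell in the main fit, 1158 with DESeq2, 86 with the replicate block and 30 at a minimum of 1.5-fold. Without a filter 197 of 32671 fell, in the fit of only those groups 100 of 19875, and with limma without a filter 136 of 32671. The 2 rises became 6 with DESeq2 and 0 under the other settings just named, and ran from 0 to 4 when 1 library was left out, while 6 members lay higher at an unadjusted p under 0.05 in edgeR. Over all genes, 891 of 20794 rose in the main fit, 2026 with DESeq2, 346 with the replicate block and 157 at a minimum of 1.5-fold. Without a filter 597 of 32671 rose, in the fit of only those groups 218 of 19875, and with limma without a filter 403 of 32671. In LNP against control, the falls ran from 0 to 2 when 1 library was left out, and Col17a1, not called, changed sign without LNP replicate 1 (0.0058) and without LNP replicate 2 (0.057), its values running from -1.16 to 0.057. Same-numbered libraries deviated from their group means with r from -0.018 to 0.040, so the numbers are not taken to pair libraries, and with the replicate block bleomycin against control had 22 rises and 6 falls and LNP against control had 14 rises and 0 falls. With that block 2758 of 20794 genes rose and 3385 fell in bleomycin against control, and 718 rose and 401 fell in LNP against control. The cause of these changes was not tested. Depth limits the rarest chains: Col2a1, with at most 28 counts in a library, has a 95% interval from -0.76 to 3.86 for the log2 fold change of bleomycin over control.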
